A study of Mus musculus with 5 samples.

Results

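The potassium channel genes of mouse hindlimb muscle were taken as the gene rows whose symbol is Kcn followed by letters and a number, with at least 20 UMIs (unique molecular identifiers, 1 per captured RNA molecule) summed over the nuclei of 5 libraries that held 400 to 25000 UMIs. Of 32285 gene rows, 92 had such a symbol and 77 reached the minimum. The other 15 were Kcnk15, Kcns1, Kcnmb3, Kcna3, Kcna10, Kcnj5, Kcnj1, Kcnk16, Kcns2, Kcnv1, Kcnk9, Kcnj4, Kcne1, Kcnk12 and Kcnk18. Just outside the minimum stood Kcns1 with 12 UMIs, Kcns2 with 13 and Kcne1 with 16, and just inside it Kcnj9 with 20, Kcnmb1 with 22 and Kcne2 with 23. The 77 genes comprised 22 voltage-gated subunits of the Kcna, Kcnb, Kcnc, Kcnd, Kcnf, Kcng, Kcns and Kcnv families, 5 Kcnq, 8 Kcnh, 12 inward rectifier (Kcnj), 9 two-pore (Kcnk), 8 calcium- or sodium-activated (Kcnma, Kcnn, Kcnt, Kcnu) and 13 auxiliary subunits (Kcnab, Kcne, Kcnip, Kcnmb).

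Nuclei of mouse hindlimb muscles, dissected without skin or bone, were profiled for RNA and open chromatin (ATAC) in the same nuclei. The WT libraries came from C57bl6n mice at E14.5 (56 hindlimbs pooled), E18.5 (14), P5 (8) and adulthood at 8 weeks (4, from males and females), and the KO library came from Cacna1s-/- C57bl6n fetuses at E18.5 (26). Cacna1s encodes Cav1.1, the voltage sensor of excitation-contraction coupling, and the KO allele lacks the coding region through insertion of a targeting cassette in every cell of the animal, so that the fetuses are paralysed and die at birth. Nuclei sorted with and without the myonuclear membrane marker PCM1 were mixed in equal volumes, so the ratio of myonuclei to other nuclei in a library was set by the sort and is not a property of the tissue.

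Potassium channels let potassium ions leave the cell and so bring the membrane back to rest after an action potential. In muscle fibers, inward rectifiers hold the resting potential and the T-tubule potassium balance, delayed rectifiers of the Kcna, Kcnb and Kcnc families shape the action potential, and the ATP-sensitive channel built from Kcnj11 and a sulfonylurea receptor ties excitability to metabolism. The large-conductance channel Kcnma1 opens with voltage and calcium, the small-conductance channels Kcnn1 to Kcnn3 open with calcium alone, and two-pore channels carry background leak. Kcnn3 is known as the apamin-sensitive channel of immature and denervated fibers.

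Myonuclei were nuclei with at least 1.5% of UMIs from Ttn, Neb, Trdn and Ryr1 (4% in the adult), and all remaining nuclei were taken as other nuclei. The gate gave 1809, 1563, 1764, 4388 and 981 myonuclei and 3003, 2698, 1983, 720 and 2247 other nuclei, in the order E14.5, E18.5, P5, adult and KO that is kept for all values. The 11 myofiber markers that the gate does not use summed to 4400, 12822, 14266, 10300 and 10386 CPM (counts scaled to the same total of UMIs in every class) in myonuclei and to 453, 502, 282, 659 and 555 CPM in other nuclei. The other nuclei still held 213, 84, 69, 36 and 96 nuclei of clusters named myonuclei-like from the myofiber markers, or 7.09, 3.11, 3.48, 5.00 and 4.27% of them. Median depth was 4870, 6971, 6414, 3385 and 10200 UMIs per myonucleus. Libraries shared 17 to 47 barcodes per pair, and 550 kept nuclei had a barcode that occurred in more than 1 library. Doublets were neither called nor removed here. Each group was 1 library, so no test between groups was possible. Intervals are exact 95% Poisson intervals for a level and exact binomial intervals for a ratio of 2 levels, and they cover counting error only, not the spread between animals or libraries.

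Promoter windows of 5 genes are printed because they carry the main patterns described here: Kcnk13 (high in the youngest fibers and in the KO), Kcng4 (detected in adult myonuclei), Kcnc1 and Kcnj12 (both highest in adult myonuclei) and Kcnj2 (at a like level throughout). Each is the 250 bases before a start site, read 5′ to 3′ on the strand of the gene, from RefSeq on build GRCm38.p6. The capitals mark matches to CAGCTG, an E-box of the kind bound by myogenic bHLH factors, or to CATTCC or its reverse complement GGAATG, the core of the Tead motif. The windows were Kcnk13 at chr12:99964249-99964498 (plus strand), Kcng4 at chr8:119635681-119635930 (minus), Kcnc1 at chr7:46396218-46396467 (plus), Kcnj12 at chr11:61065554-61065803 (plus, the second of 2 annotated starts) and Kcnj2 at chr11:111065914-111066163 (plus).
Kcnk13: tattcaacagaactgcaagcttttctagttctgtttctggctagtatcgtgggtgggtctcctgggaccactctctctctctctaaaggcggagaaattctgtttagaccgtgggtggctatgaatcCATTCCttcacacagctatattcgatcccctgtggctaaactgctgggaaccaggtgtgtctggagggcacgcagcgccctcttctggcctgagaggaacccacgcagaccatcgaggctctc
Kcng4: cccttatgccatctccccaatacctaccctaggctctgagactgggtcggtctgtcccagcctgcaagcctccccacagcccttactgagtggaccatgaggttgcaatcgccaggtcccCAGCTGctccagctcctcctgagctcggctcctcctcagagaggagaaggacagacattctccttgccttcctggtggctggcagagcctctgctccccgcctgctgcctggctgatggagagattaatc
Kcnc1: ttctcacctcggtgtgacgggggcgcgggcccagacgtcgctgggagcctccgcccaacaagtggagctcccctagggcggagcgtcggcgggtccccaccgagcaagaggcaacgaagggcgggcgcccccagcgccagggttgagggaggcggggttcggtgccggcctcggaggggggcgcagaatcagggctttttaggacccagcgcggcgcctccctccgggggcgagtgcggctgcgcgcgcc
Kcnj12: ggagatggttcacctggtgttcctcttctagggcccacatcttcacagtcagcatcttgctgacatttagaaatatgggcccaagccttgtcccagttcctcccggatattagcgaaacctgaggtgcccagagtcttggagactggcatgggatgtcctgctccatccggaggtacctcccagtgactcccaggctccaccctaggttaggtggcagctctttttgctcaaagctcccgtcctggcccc
Kcnj2: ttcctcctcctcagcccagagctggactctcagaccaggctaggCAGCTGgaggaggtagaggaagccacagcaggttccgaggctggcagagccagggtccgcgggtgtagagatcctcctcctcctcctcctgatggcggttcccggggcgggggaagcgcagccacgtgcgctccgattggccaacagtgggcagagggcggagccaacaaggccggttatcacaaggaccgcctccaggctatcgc

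Both strands were searched for the E-box CAGCTG, the Tead core CATTCC, the Mef2 site and the AP-1 site TGANTCA. All but CATTCC read the same on either strand, apart from unspecified bases, and no string holds another. The Kcnk13 window held 1 CATTCC match 123 bases before the start, the Kcng4 window 1 CAGCTG match 130 bases before it and the Kcnj2 window 1 CAGCTG match 206 bases before it. The Kcnc1 and Kcnj12 windows held none of the 4 strings. Among 32851 promoter windows of this length, 13% held CAGCTG, 12.6% CATTCC, 3.20% the Mef2 site and 6.75% TGANTCA, so a match in such a window is common. The Kcnc1 window was the most GC-rich (74.4%, with 30 CpG), against 65.6% and 14 CpG for Kcnj2, 60.4% and 4 for Kcng4, 56.0% and 4 for Kcnj12 and 52.8% and 8 for Kcnk13.

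Cacna1s, the targeted gene, measured 211, 189, 346 and 326 CPM in WT myonuclei and 0.731 CPM (8 UMIs) in KO myonuclei, 259-fold lower than in WT at E18.5 (95% interval 131 to 601). In other nuclei it measured 13.6, 6.39, 3.33, 20.0 and 0 CPM. The KO library thus carried its label.

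Together the 77 genes made up 0.317, 0.224, 0.412, 0.411 and 0.217% of the UMIs of myonuclei, and 68, 69, 73, 64 and 74 of them had at least 1 UMI there. Fewer genes stood at a sizeable level in the adult: 11 reached 20 CPM, against 18, 18 and 19 at the earlier WT stages and 18 in the KO. The 3 genes with the most UMIs held 51.8, 56.8, 68.8, 84.6 and 47.2% of all potassium channel UMIs. These were Kcnma1, Kcnd2 and Kcnn2 at E14.5 and E18.5, and Kcnma1, Kcnq5 and Kcnn2 at P5 and in the adult. In KO myonuclei they were Kcnma1, Kcnk13 and Kcnd2. This share of UMIs was highest in the adult and lowest in the KO.

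The counts include intronic reads, so long genes gather more UMIs. Sums and shares of UMIs over several genes therefore weigh long genes more, and the levels of different genes are ranked only per 10 kb of gene length. On that scale Kcnj2, which encodes the muscle inward rectifier Kir2.1, led at E14.5 (30.6 CPM per 10 kb) and in the adult (27.8), where it was followed by Kcnma1 (26.1), Kcnc1 (25.3), Kcnq5 (18.9), Kcna7 (18.4), Kcnj11 (13.3), Kcnc4 (12.7), Kcnn2 (12.6) and Kcnj12 (10.3). At E14.5 the next genes were Kcnk13 (22.8), Kcnk7 (18) and Kcnma1 (13.1), at E18.5 Kcnk7 led (38.7) before Kcnj2 (24.5), and at P5 Kcnk7 (24.4) stood just before Kcnma1 (23.7). Kcnma1, which spans 725 kb, stood first by plain CPM in all 5 libraries and first by this scale in none.

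**Figure D1:**
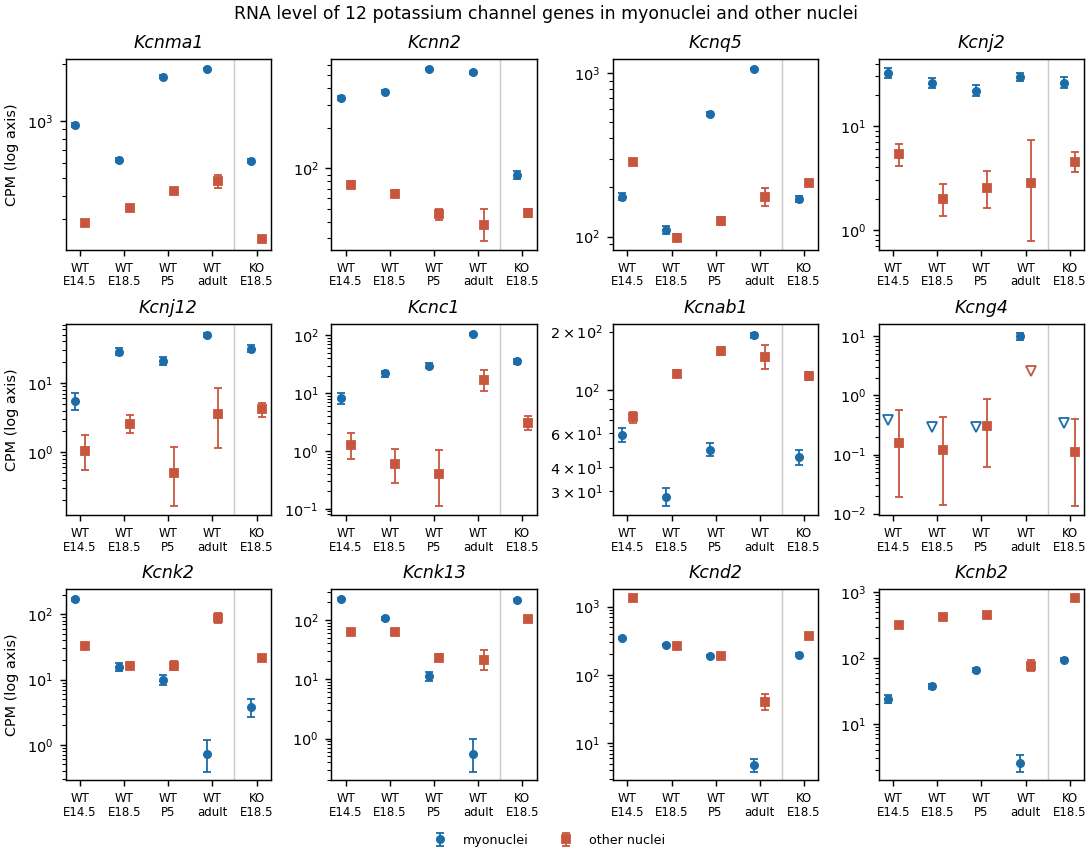
RNA level (CPM, log axis) of 12 potassium channel genes in myonuclei (blue circles) and other nuclei (red squares) of the 5 libraries, with exact 95% Poisson intervals as bars and open triangles at the upper bound where no UMI was found. Kcnj2 stays between 21.8 and 32.6 CPM in myonuclei, Kcnk2 and Kcnk13 are lower at each later WT stage, and Kcng4 has myonuclear UMIs in the adult library.

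In each comparison of 2 libraries a gene was counted as higher or lower when its levels differed at least 2-fold with at least 50 UMIs in the 2 sums. The same count over all genes is given beside it as a background. The median gene itself shifted between libraries, by 0.16 (log2) from E14.5 to E18.5, -0.33 from E18.5 to P5, -0.34 from P5 to adult and -0.04 between KO and WT in myonuclei, so the counts relative to that median are given as well.

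From E14.5 to E18.5, 7 of 36 tested potassium channel genes were higher in myonuclei (15.6% of all genes) and 9 were lower (8.93% of all genes). Relative to the median gene the counts were 6 and 11, with 12.6% and 10.9% of all genes. The higher genes included Kcnj12, Kcna7, Kcnj11, Kcnc1 and Kcnk7, and the 9 lower ones were Kcnmb2, Kcnk2, Kcnh7, Kcnh1, Kcnt2, Kcnh5, Kcnk1, Kcnk13 and Kcnab1. From E18.5 to P5, 10 of 35 were higher (6.98% of all genes) and 7 lower (18.49% of all genes), or 14 and 4 relative to the median gene (11.1% and 10.6%). From P5 to the adult, 7 of 37 were higher (8.13% of all genes) and 20 lower (30.4% of all genes), or 9 and 18 relative to the median (13.5% and 24.7%). The step to the adult thus held the largest count of lower genes of the 3 WT steps, at a stage where the background of lower genes was also the highest.

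A list of 18 partner genes of these channels and of excitability served as a reference, among them the chloride channel Clcn1, the sodium channel Scn4a and the sodium pump subunits. Of 15 tested, 6 were higher and 1 was lower at E18.5 than at E14.5, and 7 were higher and 2 lower at P5 than at E18.5. Of 16 tested, 5 were higher and 3 lower in the adult than at P5. Clcn1 and Scn4a were at least 2-fold higher at each of the 3 steps, while no potassium channel gene was at least 2-fold higher at all 3.

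The genes of calcium- and sodium-activated channels summed to 1580, 1164, 2367, 2442 and 810 CPM, or 49.8, 52.0, 57.4, 59.4 and 37.3% of the potassium channel UMIs of myonuclei. Kcnma1, the large-conductance channel (chr14:23289431-24014491, minus strand), measured 950, 621, 1719, 1893 and 610 CPM in myonuclei. It was 2.77-fold higher at P5 than at E18.5 (2.70 to 2.84) and near the same level in KO and WT at E18.5. Kcnn2, the small-conductance channel SK2, measured 338, 377, 556, 525 and 89.2 CPM. The KO library stood below every WT library for Kcnn2. Kcnn3, which encodes SK3, measured 45.3, 71.7, 51.7, 14.4 and 62.9 CPM and was 3.58-fold lower in the adult than at P5. Kcnn1, which encodes SK1, was near the floor before adulthood, with 0.205, 1.28, 0.727, 4.58 and 0.640 CPM. Kcnt2, a sodium-activated channel, was lower at every WT step, at 243, 89.9, 37.2 and 2.70 CPM, with 41.7 CPM in the KO.

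The Kcnq family, the source of the M-type current in neurons, summed to 221, 179, 734, 1115 and 261 CPM in myonuclei and was highest in the adult. Kcnq5 (chr1:21398403-21961942, minus strand) measured 175, 110, 562, 1062 and 170 CPM in myonuclei, and was 5.13-fold higher at P5 than at E18.5 (4.84 to 5.43) and 1.89-fold higher again in the adult. Kcnq1 was a gene of P5 and of the KO, with 21.9, 30.6, 69.8, 1.27 and 62.7 CPM, and was 54.9-fold lower in the adult than at P5 (37.0 to 85.4). Kcnq3 measured 20.1, 12.4, 5.73, 3.05 and 3.66 CPM, and 70.0% of its adult UMIs came from 1 nucleus.

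The voltage-gated genes kept a like sum before adulthood (426, 428 and 460 CPM, and 384 in the KO) and a lower one in the adult (200 CPM), and their makeup differed between stages. Kcnd2, an A-type channel, measured 352, 274 and 189 CPM in development, 4.78 CPM in the adult and 197 in the KO. Its adult level was 39.6-fold below that of P5 (32.2 to 49.2). Kcnb2, a delayed rectifier of the Kv2 family, was highest at P5 among WT libraries, at 24.0, 37.0, 65.3, 2.54 and 94.6 CPM. The KO exceeded all WT libraries for Kcnb2.

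Kcnc1, Kcnc2 and Kcnc4 belong to the Kcnc family of fast delayed rectifiers (Kv3). Kcnc1 measured 8.21, 22.0, 30.0, 107 and 35.5 CPM and was 3.55-fold higher in the adult than at P5 (3.18 to 3.97). The adult library had the highest Kcnc1 level of the 5. Kcnc4, the Kv3.4 subunit of skeletal muscle, was high from P5 on, at 6.88, 10.5, 32.0, 27.0 and 6.31 CPM, and was 3.03-fold higher at P5 than at E18.5 (2.48 to 3.72). Kcnc2 was seen mainly at P5, with 3.39, 6.47, 27.8, 1.07 and 3.93 CPM.

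Kcng4 encodes a silent subunit that modifies Kv2 channels (chr8:119623854-119635680, minus strand). It had 0 UMIs in the myonuclei of the E14.5, E18.5, P5 and KO libraries, which allows up to 0.308, 0.240, 0.242 and 0.274 CPM, and 197 UMIs (10.0 CPM) in adult myonuclei, at least 41.4-fold higher than at P5. The adult UMIs were spread over 166 nuclei, with at most 3 in any. Kcna7, a Kv1 subunit of heart and skeletal muscle, measured 0.719, 3.59, 3.23, 7.58 and 0.640 CPM, 5.00-fold higher at E18.5 than at E14.5 (2.24 to 13.1) and 2.35-fold higher in the adult than at P5 (1.65 to 3.42).

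The Kcnh genes (ether-a-go-go family) summed to 268, 60.4, 155, 55.4 and 91.4 CPM. Kcnh7, which encodes an erg channel (chr2:62693414-63184287, minus strand), measured 209, 32.2, 132, 53.2 and 49.4 CPM. Kcnh1, a channel known for its role in human myoblast fusion, was lower at each later WT stage, at 41.3, 14.3, 1.61 and 0.305 CPM, and measured 16.9 CPM in the KO. Kcnh2 measured 12.5, 10.2, 8.23, 0.814 and 14.8 CPM and was 10.1-fold lower in the adult than at P5.

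The inward rectifiers summed to 119, 179, 183, 98.5 and 235 CPM. Kcnj2 measured 32.6, 26.1, 21.8, 29.6 and 26.2 CPM and stayed within 2-fold across all 5 libraries. Kcnj12, which encodes Kir2.2 (chr11:61022564-61071131, plus strand), measured 5.44, 28.5, 20.8, 50 and 31.4 CPM, with steps of 5.24-fold between E14.5 and E18.5 (3.92 to 7.13) and 2.40-fold between P5 and the adult (2.09 to 2.76). Kcnj11, the pore of the ATP-sensitive channel, measured 2.26, 6.31, 5.09, 9.05 and 5.67 CPM and was 2.79-fold higher at E18.5 than at E14.5 (1.72 to 4.71). The adult library had the highest level of both. Kcnj3, a G protein-gated channel best known from atrium and brain, followed another course, with 57.0, 105, 126, 8.54 and 163 CPM, and was 14.8-fold lower in the adult than at P5 (12.6 to 17.4).

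The two-pore channels were highest in the youngest fibers, with sums of 408, 142, 32.9 and 3.81 CPM in WT myonuclei and 236 CPM in the KO. Kcnk2, the stretch-sensitive channel TREK-1 (chr1:189207930-189402273, minus strand), measured 171, 15.8, 9.93, 0.712 and 3.75 CPM, 10.8-fold lower at E18.5 than at E14.5 (9.31 to 12.6). A second annotated gene, 2900042K21Rik, overlaps Kcnk2 on the same strand. Kcnk13, which encodes THIK-1 (chr12:99964499-100062682, plus strand), measured 224, 106, 11.2, 0.559 and 218 CPM. It was 9.41-fold lower at P5 than at E18.5 (7.90 to 11.3), and the KO level equalled that of E14.5. Myoblast markers ran in parallel with Kcnk13: the 7 markers summed to 493, 329, 90.7, 10.5 and 577 CPM in myonuclei, with Mymk and Mymx at 0 in the adult and all 7 detected elsewhere. The part of myoblast RNA in the Kcnk13 values was not tested.

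Among auxiliary subunits, Kcnab1, the beta subunit of Kv1 channels, measured 58.3, 27.9, 49.2, 191 and 44.8 CPM and was 3.88-fold higher in the adult than at P5 (3.56 to 4.24). Kcnip4, a partner of Kv4 channels such as Kcnd2, measured 70.2, 45.6, 130, 2.44 and 95.3 CPM. At P5, 73.9% of the Kcnip4 UMIs came from 5 nuclei, and with a gate of 4% the log2 ratio of P5 to E18.5 was -0.83. Kcnmb2, a partner of Kcnma1, was 17.0-fold lower at E18.5 than at E14.5 (6.91 to 54.0), at 6.78 and 0.399 CPM. Kcne3, a gene listed among muscle channels, was at or near 0 in myonuclei (0, 0.399, 0.0807, 0 and 0.0914 CPM).

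Myonuclei and other nuclei of the same library were compared to place each gene. In myonuclei 14 of 45, 16 of 48, 18 of 44, 13 of 29 and 13 of 50 tested genes were at least 2-fold higher than in other nuclei, against 9.82%, 11.8%, 11.9%, 14.0% and 10.1% of all genes. The lower genes numbered 18, 20, 19, 10 and 25, against 28.7%, 27.6%, 37.2%, 31.7% and 27.5%. The median gene was itself lower in myonuclei, with log2 ratios of -0.5, -0.37, -0.66, -0.44 and -0.38. Relative to it, 17, 19, 20, 13 and 18 potassium channel genes were higher, against 15.0, 16.6, 19.8, 20.4 and 14.6% of all genes. On the same scale 17, 17, 17, 9 and 23 were lower, against 19.5, 20.8, 22.1, 22.7 and 20.8%. The share of higher members (31.1, 33.3, 40.9, 44.8 and 26.0%) was above the background in each of the 5 libraries. The share of lower members was 40.0, 41.7, 43.2, 34.5 and 50%. At P5 and in the adult this lower share, not set relative to the median gene, was near the background of 37.2% and 31.7%. Relative to the median gene 17 of 44 and 9 of 29 were lower, against 22.1% and 22.7% of all genes.

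Kcnc1, Kcnc4, Kcnj2, Kcnj3 and Kcnj12 were at least 2-fold higher in myonuclei in all 5 libraries. Kcnj2 measured 5.34, 1.99, 2.53, 2.86 and 4.54 CPM in other nuclei, far below its 21.8 to 32.6 CPM in myonuclei. Kcnj12 measured 1.04, 2.58, 0.505, 3.57 and 4.16 CPM there, and Kcnj3 12.6, 3.28, 1.11, 2.14 and 18 CPM. Kcnc1 measured 1.27, 0.586, 0.404, 17.2 and 3.06 CPM in other nuclei. The myonuclear excess of these 5 genes was present in both genotypes. With a gate of 4% in every library, which left 76 myonuclei at E14.5, the log2 ratio of Kcnj3 was -0.46 and that of Kcnh7 -0.18 at that stage. Kcnn2 was 4.47-, 5.82-, 12.3- and 13.9-fold higher in WT myonuclei than in WT other nuclei and 1.93-fold in the KO.

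Kcnb2 and Kcnc2 belonged to the other nuclei. Kcnb2 measured 315, 424, 448, 76.5 and 806 CPM there, and Kcnc2 measured 53.7, 55.2, 164, 114 and 25.4 CPM. Kcnd2 measured 1320, 268, 189, 40.0 and 377 CPM in other nuclei, so that both classes held the same level of it at P5. A sum over other nuclei mixes cell types in different proportions, so a shift in the share of a cell type and a shift of RNA within it cannot be told apart in such a sum.

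The comparison of KO with WT fetuses addressed the dependence of fiber maturation on Cav1.1. In myonuclei 7 of 39 tested genes were higher in the KO (4.78% of all genes) and 8 lower (4.69% of all genes), and the counts relative to the median gene were the same. With a gate of 4% (279 KO myonuclei) 3 genes were higher, and without the nuclei of shared barcodes 4. The higher genes were Kcnd3, Kcnh8, Kcnb2, Kcnip3, Kcnip4, Kcnk13 and Kcnq1. The lower genes included Kcna7, Kcnn2, Kcnk2, Kcng2, Kcnk7, Kcnq3 and Kcnt2. By role, 2 of 5 tested calcium- or sodium-activated genes were lower and none higher. Of 10 voltage-gated genes 3 were lower and 2, Kcnb2 and Kcnd3, were higher, and of 6 inward rectifiers none passed 2-fold either way. Of 15 tested partner genes, Abcc8, the sulfonylurea receptor of the ATP-sensitive channel, was higher, and Cacna1s itself and Atp1b4 were lower.

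Kcnn2 had the largest difference among abundant genes, with 377 CPM in WT and 89.2 CPM in KO myonuclei, 4.23-fold lower (3.95 to 4.54). Kcna7 was 5.62-fold lower in the KO (2.52 to 14.8), Kcnk2 4.22-fold (3.00 to 6.06) and Kcnk7 3.87-fold (2.59 to 5.97). Myonuclei with at least 3 Col22a1 UMIs, described below, held 77.3% of the Kcnk2 UMIs of WT myonuclei at E18.5. They made up 10.2% of WT and 4.99% of KO myonuclei, and their part in the Kcnk2 difference was not tested. Kcna7 was higher at E18.5 than at E14.5 in WT, whereas Kcnk2 was lower, so genes of both stage orders were among the lower ones. Kcnk13 was 2.06-fold higher in the KO (1.93 to 2.21), Kcnb2 2.56-fold (2.29 to 2.86), Kcnq1 2.05-fold and Kcnd3 6.58-fold (3.54 to 13.3). For Kcnd3 and Kcnh8 a few nuclei set the KO level: 5 nuclei held 69.6% of the Kcnd3 UMIs and 92.2% of the Kcnh8 UMIs. The mesenchymal markers, 8 of 8 detected in both libraries, summed to 477 CPM in KO and 1228 CPM in WT myonuclei. In the nuclei named mesenchymal-like below, Kcnb2 measured 1849 CPM in the KO and 543 CPM in WT. The myoblast markers summed to 577 CPM in KO and 329 CPM in WT myonuclei. The part of mesenchymal RNA in the Kcnb2 values and of myoblast RNA in the Kcnk13 values was not tested.

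The mix of fiber stages was held closer by taking nuclei whose myosin heavy chain UMIs came mostly from 1 gene, a split extended to E18.5 after the data were seen. Among Myh8-dominant nuclei (582 KO and 845 WT), Kcnn2 measured 68.6 CPM in the KO and 292 in WT, 4.25-fold lower (3.83 to 4.73). Among Myh3-dominant nuclei (115 and 195) it measured 104 and 414 CPM, 3.97-fold lower (3.29 to 4.81). The Kcnn2 difference was thus of like size in both. Kcnk13 measured 152 against 65.6 CPM in Myh8-dominant nuclei (2.32-fold higher) and 371 against 246 CPM in Myh3-dominant nuclei (1.51-fold). Kcnma1 measured 701 CPM in both genotypes of Myh8-dominant nuclei.

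In other nuclei 16 of 52 tested genes were higher in the KO (7.09% of all genes) and 2, Kcnk7 and Kcnc2, were lower (3.75% of all genes). Kcnk3 was 6.31-fold higher, Kcnh1 5.71-fold, Kcnj3 5.48-fold, Kcnh7 5.43-fold, Kcnc1 5.22-fold and Kcna2 4.81-fold. Kcnj3, Kcnh7, Kcnc1 and Kcnh1 are genes that myonuclei carried at a higher level than other nuclei in both E18.5 libraries. The 15 myofiber markers, all detected in both, summed to 2243 CPM in KO and 1636 CPM in WT other nuclei, and their part in these values was not tested. Without the myonuclei-like clusters 15 genes were higher and 2 lower, where the 7.09% and 3.75% of all genes above belong to all other nuclei and not to this setting. With these clusters left out the log2 ratio was 3.27 for Kcnj3, 2.46 for Kcnh7 and 2.37 for Kcnh1. Among the classes described below, unnamed nuclei held 71 Kcnh1 UMIs in the KO and 1 in WT, and 83 and 4 Kcnj3 UMIs. Mesenchymal-like nuclei held 185 and 23 Kcnh7 UMIs. The mix of clusters also differed: unnamed clusters 18 and 22 held 84 and 72 KO nuclei, against 0 and 16 WT nuclei at E18.5. Kcnc2 was 2.18-fold lower in KO other nuclei.

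**Figure D2:**
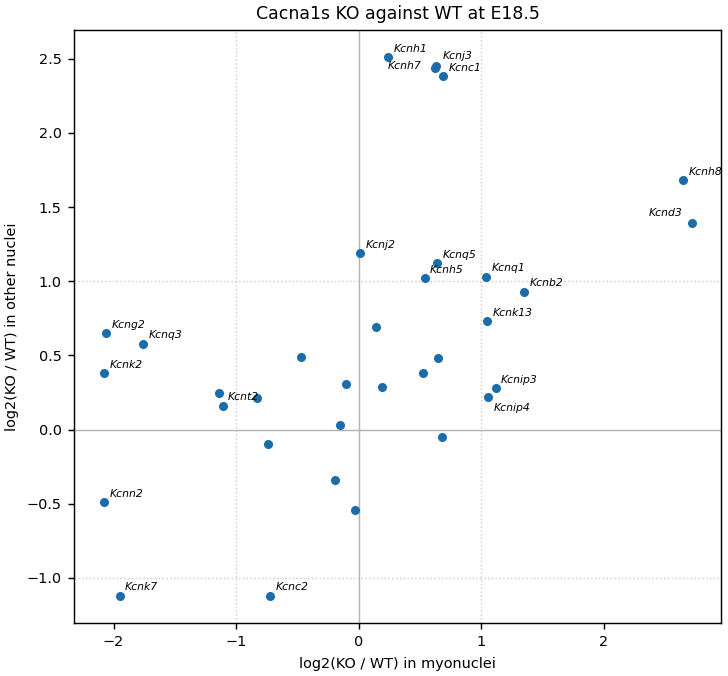
Log2 ratio of KO to WT at E18.5 for 34 potassium channel genes tested in both classes, in myonuclei (x) and other nuclei (y), with dotted lines at 2-fold. Kcnn2, Kcnk2 and Kcng2 lie at the left, lower in KO myonuclei and within 2-fold in other nuclei, and Kcnh8 and Kcnd3 lie at the upper right, higher in both classes.

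Other nuclei were clustered with the potassium channel and partner genes left out and named from marker lists, where the names are rebuilt here and may differ from those of the study. Of 10651 nuclei, 3010 stayed in unnamed clusters. A gene is said to lead a class when its ratio to the rest of other nuclei, over all libraries, was among the 3 highest of that class for genes with at least 50 UMIs there. Myonuclei-like nuclei, which fell below the gate, led with Kcnj12, Kcnj3 and Kcnj2, genes that were also higher in gated myonuclei. They held 105 of the 329 Kcnj3 UMIs of KO other nuclei and 34 of 56 in WT at E18.5. The cells around the fiber led with other channels. Kcnh8 marked Schwann-like nuclei, with 427, 1128 and 1650 CPM in the 3 developmental WT libraries and 1092 in the KO, against 12.3, 3.44, 7.22 and 27.1 CPM in the rest. Kcna1 and Kcna2, the Kv1 channels of myelinated nerve, also led there: Kcna1 at 168, 86.0, 195 and 93.3 CPM and Kcna2 at 38.4, 80.9, 190 and 130 CPM. The adult library had no Schwann-like nuclei.

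Smooth muscle and pericyte-like nuclei led with Kcnab1 and with Kcnj8, the vascular ATP-sensitive pore. Kcnab1 reached 738 CPM at E14.5 and 3242 CPM at E18.5, where the rest held 29.0 CPM. Over all libraries Kcnj8 measured 75.7 CPM in 261 nuclei against 5.83 CPM in the rest, with its partner Abcc9 at 1018 and 60.8 CPM. Myonuclei held the other ATP-sensitive pore, Kcnj11, and Kcnj8 measured 0.0509 to 1.61 CPM there.

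Myoblast-like nuclei carried Kcnk13 at 629, 641 and 728 CPM in the 3 developmental WT libraries and at 672 CPM in the KO, against 28.4, 23.1, 10.1 and 43.0 CPM in the rest. The level within this class thus stayed near the same while that of myonuclei went from 224 to 11.2 CPM between E14.5 and P5. The class held 145, 168, 45 and 243 nuclei in these libraries and none in the adult. Kcnk13 was also found in macrophage-like nuclei, at 61.7, 180, 101, 638 and 102 CPM, against 61.4, 57.0, 19.1, 2.94 and 102 CPM in the rest, so that E14.5 and the KO showed no excess. Muscle stem cell-like nuclei led with Kcnn3, at 29.8, 81.5, 169 and 306 CPM in WT and 70.8 CPM in the KO, against 29.8, 35.1, 43.8, 22.7 and 23.9 CPM in the rest. The E14.5 library thus showed no excess, and the adult value came from 32 nuclei.

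Kcnk3, the leak channel TASK-1, marked adipocyte-like nuclei, with 45.0 CPM at P5, 81.1 in adult tissue and 88.2 in KO tissue, together with Kcns3 (46.8 CPM against 8.10 in the rest). WT at E18.5 had 9 adipocyte-like nuclei and the KO 112, so the class itself differed in number between the libraries that gave the Kcnk3 difference in other nuclei. The 7 adipocyte markers, all detected in both, summed to 537 CPM in KO and 45.1 CPM in WT other nuclei. Kcne3 was found in endothelial-like nuclei, at 15.6, 51.3, 19.2 and 9.87 CPM in the developmental WT and KO libraries, against at most 0.330 CPM in the rest. Tenocyte-like nuclei carried Kcnma1 at 465, 927, 1315, 3084 and 667 CPM, against 280, 206, 234, 347 and 223 CPM in the rest, with the adult value from 32 nuclei. Chondrocyte and osteoblast-like nuclei led with Kcnd2 over all libraries, which rested on E14.5, with 2640 CPM against 1217 in the rest. The class measured 243 CPM against 269 at E18.5 and 4.40 against 193 at P5, and at a coarser Leiden resolution the log2 ratio over all libraries was -1.05.

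Kcnb2 (chr1:15287254-15723750, plus strand) had its highest level over all libraries among named classes in mesenchymal-like nuclei, at 587, 543, 676, 134 and 1849 CPM. Unnamed nuclei held more in WT at E18.5, at 874 CPM. The KO value was 3.41-fold that of WT at E18.5 (3.26 to 3.57). The clusters that made up the class differed: 470 of 703 KO nuclei came from 1 cluster (number 3) that gave 206 of 618 WT nuclei. Within that cluster Kcnb2 measured 2219 CPM in the KO and 399 CPM in WT (5.56-fold). It was 1.81-fold higher in cluster 8 and 1.87-fold in cluster 17. Higher KO values were also found in tenocyte-like (529 against 158 CPM), muscle stem cell-like (373 against 163), macrophage-like (205 against 105) and Schwann-like nuclei (339 against 207). The tenocyte-like class also differed in makeup, as cluster 6 gave 56 of 73 KO and 285 of 510 WT nuclei. Within cluster 6 Kcnb2 measured 467 CPM in the KO and 232 CPM in WT (2.01-fold). Endothelial-like nuclei measured 60.6 CPM in the KO and 75.6 in WT, with an interval of the ratio of 0.526 to 1.21 that holds both directions. All unnamed nuclei summed were 1.42-fold lower in the KO (617 against 874 CPM, 1.34 to 1.5). The unnamed cluster 1 (145 KO and 741 WT nuclei) was 1.36-fold higher (1266 against 934 CPM). The mean log2 ratio of the mesenchymal markers to the named clusters of other classes was 1.09 there. In the mesenchymal-like clusters it was 0.94 to 1.73. Cluster 1 stayed unnamed because 2 erythroid markers were among its 10 leading genes. The 3.41-fold value of the mesenchymal-like class leaves this cluster out.

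Kcnc2 had the opposite order in mesenchymal-like nuclei, with 19.1 CPM in the KO and 120 in WT, 6.27-fold lower. It was 3.98-fold lower within cluster 3 and 12.5-fold lower within cluster 8. Kcnn3 measured 12.7 CPM in KO and 67.5 CPM in WT endothelial-like nuclei, 5.32-fold lower. Kcnh8 had 59 UMIs in KO macrophage-like nuclei and 1 UMI in WT ones (51.4 and 1.59 CPM), a ratio of 32.3 with an interval of 5.57 to 1296, where the Schwann-like nuclei of the KO held 1092 CPM.

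Across stages, other nuclei had 6 higher and 14 lower of 47 tested genes at E18.5 against E14.5 (7.64% and 9.22% of all genes), 7 and 4 of 45 at P5 against E18.5 (4.05% and 6.36%) and 6 and 9 of 31 in the adult against P5 (9.79% and 22.6%). Without the myonuclei-like clusters 3 genes were higher at E18.5 than at E14.5. Kcnd2 was 4.92-fold lower at E18.5 than at E14.5 there. In adult other nuclei Kcnk3 was 13.8-fold, Kcnk5 8.95-fold and Kcnk2 5.40-fold higher than at P5, the two-pore genes that adult myonuclei nearly lacked. Adipocyte-like nuclei made up 16.8% of adult and 1.61% of P5 other nuclei. A single nucleus set the Kcnh7 level of other nuclei at P5 (84.2% of its UMIs) and in the adult (94.7%).

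Kcnh7 was unevenly spread among myonuclei, and a split by Col22a1, a collagen of the myotendinous junction, was made after this was seen, so the Kcnh7 values across it are a description. Myonuclei with at least 3 Col22a1 UMIs numbered 639, 159, 89, 85 and 49, or 35.3, 10.2, 5.05, 1.94 and 4.99% of myonuclei. Their median depth was 5878, 9420, 8278, 3918 and 14855 UMIs, against 4376.5, 6618, 6415, 3365 and 9921.5 in myonuclei with none. The 2 sets thus differed in depth, as the libraries did. The Col22a1 nuclei held 78.5, 77.4, 87.8, 85.2 and 65.9% of the myonuclear Kcnh7 UMIs. Kcnh7 measured 378, 195, 1585, 1854 and 476 CPM in them, and 27.7, 6.13, 13.8, 2.12 and 16.1 CPM in myonuclei with no Col22a1 UMI. The ratio of the 2 sets was 13.7, 31.9, 115, 876 and 29.5, with intervals of 11.3 to 16.6, 24.1 to 42.6, 97.2 to 136, 638 to 1235 and 24.3 to 35.9.

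Other channels also differed between the 2 sets. The counts of higher genes given next include Kcnh7 in each library, whose uneven spread was known before the split. Of the tested genes, 10 of 24, 8 of 29, 9 of 30, 5 of 22 and 6 of 25 were higher in the Col22a1 nuclei (9.51%, 5.98%, 10.2%, 7.89% and 6.58% of all genes) and 6, 7, 6, 4 and 10 were lower (8.45%, 8.81%, 8.92%, 11.4% and 14.1%). Kcnk2 measured 343, 95.7 and 115 CPM with Col22a1 and 20.4, 3.01 and 1.59 CPM without at E14.5, E18.5 and P5. Kcnc4 was higher with Col22a1 in all 5 libraries, at 14.4, 32.5, 71.8, 89.5 and 26.7 CPM against 0.710, 7.03, 28.4, 25.2 and 5.06 CPM. Kcnj3 had the same order, at 103, 325, 213, 183 and 249 CPM against 19.6, 71.8, 120, 4.02 and 154 CPM. Its ratio was only 1.77 at P5 and 1.61 in the KO. Without the 5 richest nuclei of each set, the Kcnj3 log2 ratio was -0.12 at P5 and -0.04 in the KO. Kcnq5 stood on opposite sides: it was 14.2-fold and 3.17-fold higher with Col22a1 at E14.5 and E18.5, and 3.24-fold and 6.12-fold lower at P5 and in the adult.

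Kcnn2 was lower in the Col22a1 nuclei of the 4 WT libraries, at 159, 280, 204 and 70.7 CPM against 492, 379, 587 and 537 CPM. The KO gave 108 against 85.3 CPM, with 81 UMIs in 13 Col22a1 nuclei and an interval of the ratio of 0.996 to 1.59. Without the 5 richest nuclei of each set, the Kcnn2 log2 ratio in the KO was -1.39. Kcnq1 was 8.09-, 4.88-, 5.23- and 8.78-fold lower with Col22a1 in the developmental WT and KO libraries. Kcnma1 was close to equal in the 2 sets, at 937, 541, 1699, 1746 and 731 CPM with Col22a1 and 926, 657, 1721, 1896 and 612 CPM without. The share of Col22a1 nuclei and the Kcnk2 level were both highest at E14.5, and within these nuclei Kcnk2 was 3.58-fold lower at E18.5 than at E14.5, where all myonuclei gave 10.8-fold. In the same nuclei Kcnh7 was 8.12-fold higher at P5 than at E18.5 and 2.44-fold higher in the KO than in WT (476 against 195 CPM).

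**Figure D3:**
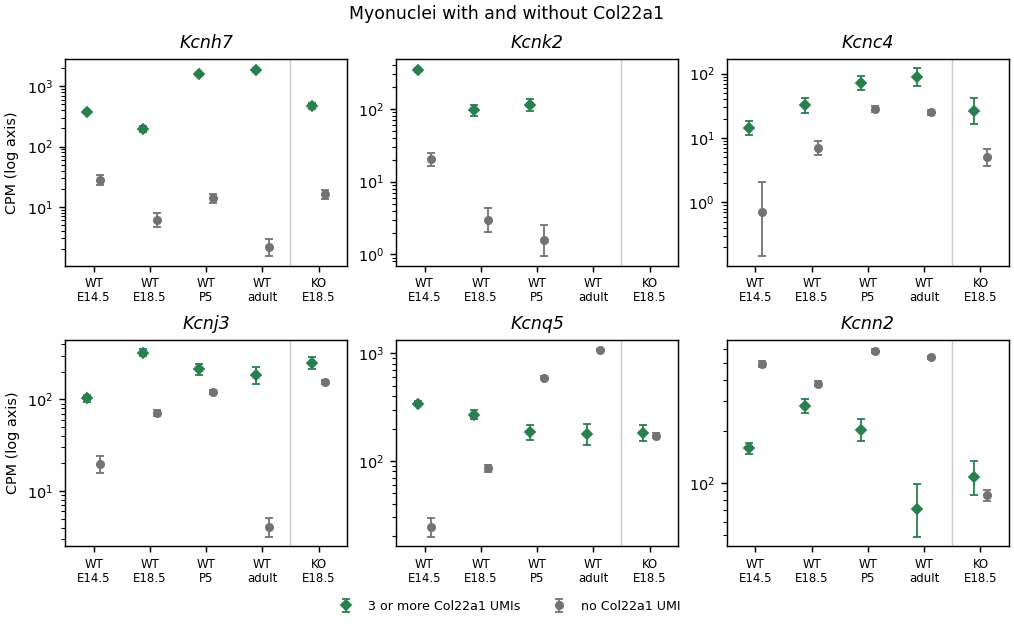
RNA level (CPM, log axis) of 6 potassium channel genes in myonuclei with at least 3 Col22a1 UMIs (green diamonds) and with none (grey circles), with exact 95% Poisson intervals. Kcnk2 is left out in the adult and the KO, where it had under 50 UMIs. Kcnh7, Kcnc4 and Kcnj3 are higher with Col22a1 in each library, though Kcnj3 by less than 2-fold at P5 and in the KO. Kcnq5 is higher with Col22a1 at E14.5 and E18.5 and lower at P5 and in the adult.

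Adult myonuclei were further divided by their dominant fast myosin, with 3236 Myh4-, 460 Myh1- and 189 Myh2-dominant nuclei. Against Myh1, 3 of 20 tested genes were higher and 7 lower in Myh4-dominant nuclei (6.64% and 7.50% of all genes), and against Myh2, 5 of 20 were higher and 6 lower (11.3% and 9.91%). Kcnab1 was a gene of Myh4-dominant nuclei, with 241 CPM against 8.87 in Myh1-dominant (27.2-fold, 17.8 to 44.0) and 5.59 in Myh2-dominant nuclei (43.2-fold).

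Several channels had the reverse order. Kcnn3 measured 3.89 CPM in Myh4-, 47.3 in Myh1- and 61.5 CPM in Myh2-dominant nuclei, 12.2-fold and 15.8-fold lower with Myh4. Kcnc1 measured 68.5, 262 and 267 CPM, and Kcnq5 820, 2305 and 1416 CPM. Kcnn2 measured 437, 972 and 764 CPM. Each of these 4 genes was lowest in Myh4-dominant nuclei. Kcnma1 (1910, 1365 and 2449 CPM), Kcnj2 (26.0, 45.6 and 50.3 CPM) and Kcnj12 (54.4, 34.2 and 29.1 CPM) differed less. Kcnh7 (52.8, 1.69 and 2.23 CPM) was held by 60 Myh4-dominant nuclei, with 47.2% of its UMIs in 5 of them.

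At P5, 48 Myh7-dominant nuclei, the slow type, were set against 693 Myh8-dominant ones, and 5 of 20 tested genes were higher and 5 lower (5.28% and 17.3% of all genes). Kcnq5 measured 1986 CPM in the Myh7-dominant and 490 CPM in the Myh8-dominant nuclei, Kcnma1 3799 and 1530 CPM, and Kcnn2 1029 and 502 CPM. Kcnd2 measured 1543 and 80.7 CPM, with UMIs in 27 of the slow nuclei. The 1577 CPM of Kcnip4 in slow nuclei came mostly (65.7%) from 1 nucleus.

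**Figure D4:**
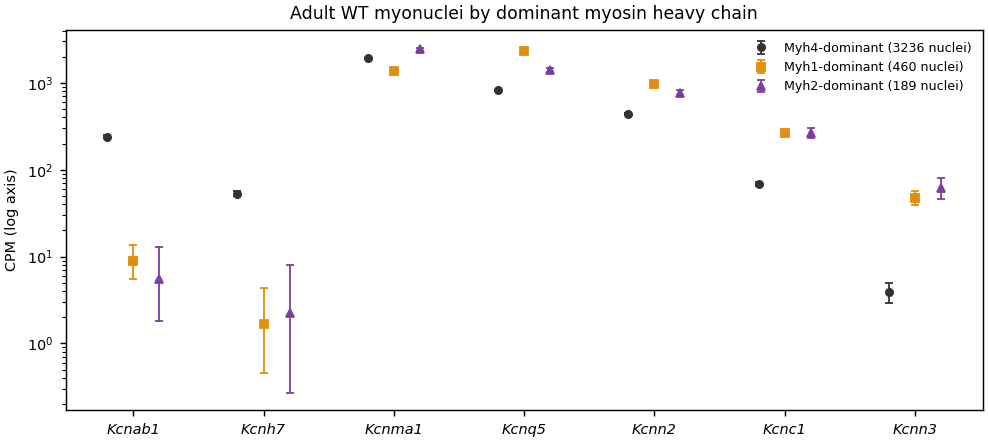
RNA level (CPM, log axis) of 7 potassium channel genes in adult WT myonuclei whose myosin heavy chain UMIs came mostly from Myh4, Myh1 or Myh2, with exact 95% Poisson intervals. Kcnab1 and Kcnh7 are highest in Myh4-dominant nuclei, and Kcnc1 and Kcnn3 are lowest there.

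The ATAC part of the same nuclei gave the accessibility of start sites. Peaks were called in each library on its own, so a site without a peak has no value in that library, and levels of 2 libraries come from regions that differ in extent and are given side by side with no ratio. Within 500 bases of an annotated start, 56, 60, 53, 52 and 51 of the 77 genes had a peak, 38 had one in all 5 libraries and 10 in none. Kcnh7, Kcnh8 and Kcnu1 were among the 10. Levels are ATAC counts in the peak, scaled to the ATAC total of the class (ATAC CPM), and the single peaks given below covered 772 to 948 bases except where stated.

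Kcnj12 measured 15.2, 28.1, 34.2, 42.5 and 24.2 ATAC CPM in myonuclei at its first start. Kcna7 measured 12.8, 17.9, 26.1, 76.4 and 30.5 ATAC CPM, over 2 peaks of 1479 bases in the adult and of 1663 in the KO, or 14.1, 20.2, 30.1, 51.6 and 18.3 ATAC CPM per kb of peak. Both had their highest value in the adult, as did their RNA. Kcng4 had a start-site peak in the adult, at 22.2 ATAC CPM in myonuclei and 8.56 in other nuclei, and none in the E14.5, E18.5 and P5 libraries. In the KO a peak of 610 bases near the start measured 2.45 ATAC CPM in myonuclei and did not reach the printed window. The printed Kcnj12 window lay in a peak in the adult library alone, at 9.07 ATAC CPM.

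The start-site levels of Kcnk2 and Kcnt2 were lower at each later WT stage, as their RNA was: Kcnk2 measured 30.5 (over 2 peaks of 1699 bases), 8.39, 5.50, 1.44 and 5.08 ATAC CPM and Kcnt2 19.5, 8.94, 4.17, 1.76 and 8.94. Kcnk13 differed less, at 23.6, 15.2, 14.8, 9.38 and 24.4 ATAC CPM, where its RNA spanned 0.559 to 224 CPM. Kcnc1 was accessible at a like level at all stages (40.2, 39.7, 46.7, 48.2 and 46.5 ATAC CPM), as were Kcnj2 (44.2, 36.2, 41.4, 55.9 and 41.7) and Kcnj11 (50.8, 42.7, 59.3, 63.5 and 40.7). The Kcnc1 RNA spanned 8.21 to 107 CPM over the same libraries. The first start of Kcnn2 measured 22.3 ATAC CPM in KO and 30.6 in WT myonuclei at E18.5, over peaks of 796 and 795 bases, where its RNA was 4.23-fold lower.

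**Figure D5:**
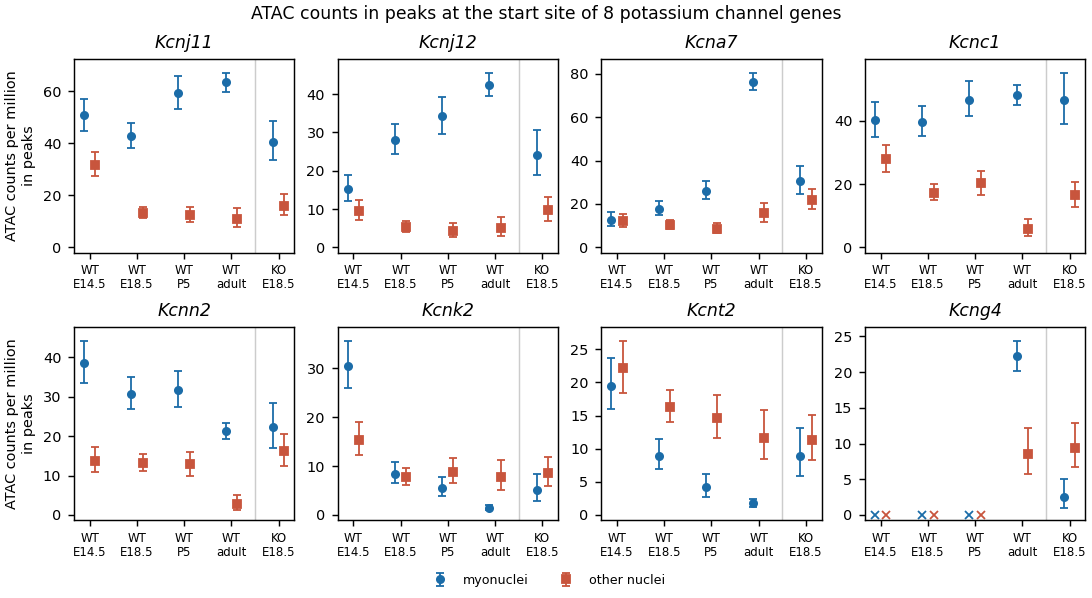
Scaled ATAC counts (ATAC CPM, linear axis) in the peaks at 1 annotated start site of 8 potassium channel genes, in myonuclei (blue circles) and other nuclei (red squares), with exact 95% intervals, where crosses mark libraries where no peak was called. Peaks were called in each library on its own and differ in extent. Kcna7 and Kcnj12 are highest in adult myonuclei, and Kcnk2 and Kcnt2 are lowest there.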

How the data were processed

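Single nucleus RNA and ATAC libraries (10x Multiome) were analysed as deposited. The authors aligned reads and counted them with Cell Ranger ARC 2.0.0 on mm10, intronic reads included, and deposited raw counts per gene and per library-specific peak. Counts in peaks were even in 83.1 to 84.5% of cases, so ATAC intervals were computed on pairs. The deposited counts were used without the authors' own cell annotation.

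Total UMIs per library were 23343327, 35521496, 24610011, 21394846 and 49913899 (WT E14.5, E18.5, P5, adult and KO E18.5). Kept nuclei held 400 to 25000 UMIs, of which no more than 10% were mitochondrial, and no more than 70000 ATAC counts. Sums of UMIs over the nuclei of a class were scaled to CPM within each library. Groups were taken from the labels, with 1 library each, so values were compared as ratios of sums, and a gene was counted at 2-fold with at least 50 UMIs in the 2 sums. Where a class had 0 UMIs, 3 counts were taken as the floor of that class, and a ratio whose direction the floor would turn was set to no difference. The ratios were tested on simulated data. Other nuclei were clustered with Scanpy 1.11.5 and leidenalg 0.10.2 (2000 variable genes, 30 components, 20 neighbours, resolution 1). Dominant myosin required at least 3 Myh UMIs, with at least 2 of every 3 from 1 gene. Start sites and overlapping genes came from GENCODE vM21, sequences from RefSeq. Same-strand overlaps were found for Kcnk2 (2900042K21Rik), Kcnd3 (Gm43847), Kcnip1 (4930469K13Rik) and Kcnk4 (Catsperz). Python 3.11.15, NumPy 2.4.6, SciPy 1.17.1 and pandas 2.3.3 were used.

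The members and lists were chosen with earlier results of these data known. Genes were named when they had at least 20 CPM in either class of any library, were among the 5 highest or 5 lowest ratios of a comparison or the 3 leading genes of a class, or are textbook muscle channels (Kcnj2, Kcnj11, Kcnj12, Kcnn2, Kcnn3, Kcnma1, Kcnc4, Kcne3, Kcnh1 and Kcna7). Alternatives covered the filters on nuclei, the gate, the definition of other nuclei, the scaling, the mean over nuclei, the UMI minimum, the window at start sites, the cluster resolution and the myosin rule. Those on shared barcodes, myonuclei-like clusters, the 5 richest nuclei, Col22a1, and KO against WT within a myosin or a class were added after the data were seen. Results for some genes are not reported here.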

Additional observations from a re-analysis of the deposited data

Results flagged for a closer look

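For 4 genes the ratio of 2 stages had opposite signs in the 2 classes of nuclei, which was seen in 5 comparisons, each with 1 library per stage, and the difference between classes was not tested. From E18.5 to P5, the log2 ratio of Kcnh1 was -3.15 in myonuclei and 1.5 in other nuclei, and that of Kcnh5 was 2.08 and -1.55. From P5 to the adult, the log2 ratio of Kcnk2 was -3.80 in myonuclei and 2.43 in other nuclei, that of Kcnh7 -1.31 and 2.48, and that of Kcnh5 -4.61 and 2.71. A single nucleus held 84.2% of the Kcnh7 UMIs of other nuclei at P5 and 94.7% in the adult, and a single nucleus held 22 of the 24 Kcnh5 UMIs of adult other nuclei (91.7%).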

How the results depend on the processing

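No paired analysis was possible because each group was 1 library and the labels give no replicate numbers. With nuclei of 400 to 25000 UMIs and no further filter, with the mean over nuclei, with the wider window at start sites and with at least 5 Col22a1 UMIs, all counts of genes at 2-fold stayed within 1.5 times, and the UMI minimum moved most of them. The causes below were not tested, other than that a UMI minimum sets how many genes are counted. The number of tested genes and the share of all genes can also change with the setting and are not given with the counts below. Counts under other settings without that share, here and above, thus show how far a count moved and not a difference from the background.

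In myonuclei, the counts higher and lower were 4 (higher) at a minimum of 200 UMIs and 17 and 14 at 1 UMI from E14.5 to E18.5, 3 (lower) at 200 and 17 and 15 at 1 from E18.5 to P5 with 4 (lower) under median-of-ratios scaling, and 4 and 11 at 200 and 39 (lower) at 1 from P5 to the adult. For KO against WT they were 4 and 4 at 200, 12 and 13 at 1, 3 (higher) with the gate at 4% and 4 (higher) without nuclei of shared barcodes.

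In other nuclei, the counts were 2 (higher) at 200 UMIs, 10 and 26 at 1 and 3 (higher) either with other nuclei below 0.5% or without the myonuclei-like clusters from E14.5 to E18.5, 3 and 1 at 200, 10 (lower) at 1 and 8 (lower) without the 5 richest nuclei from E18.5 to P5, and 1 and 3 at 200, 17 (higher) at 1 and 15 (lower) without the 5 richest nuclei from P5 to the adult. For KO against WT they were 9 and 1 at 200, 4 (lower) at 1, 1 (lower) with at least 400 ATAC counts and 4 (lower) with the gate at 4%.

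For myonuclei against other nuclei, the counts were 8 and 9 at 200 and 34 (lower) at 1 at E14.5, with 6 and 7 at the gate of 4%, 9 and 8 at 200 and 33 (lower) at 1 at E18.5, 11 and 7 at 200 and 37 (lower) at 1 at P5, 8 and 3 at 200 and 37 (lower) at 1 in the adult, and 14 (lower) at 200 and 38 (lower) at 1 in the KO.

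The gate of 4%, which left 76, 745, 1332 and 279 myonuclei in the 3 developmental WT libraries and the KO, turned the log2 ratio of Kcnip4 (P5 against E18.5, myonuclei) to -0.83, of Kcnh1 (P5 against E18.5, other nuclei) to -0.58, and of Kcnh7 (adult against P5, other nuclei) to -0.58. For myonuclei against other nuclei it turned, at E14.5, Kcnj3 to -0.46, Kcnh7 to -0.18 and Kcna1 to 0.36, at P5 Kcnh7 to -0.12, and in the KO Kcnh1 to -0.45 and Kcnk13 to -0.15. The Kcnh7 ratio of P5 to E18.5 in other nuclei was -1.28 both with other nuclei below 0.5% and without the myonuclei-like clusters, -0.09 with the mean over nuclei and -1.30 without the 5 richest nuclei, Kcnq3 in the adult turned to 0.87 and 1.02 under these settings, and Kcnd2 in chondrocyte and osteoblast-like nuclei to -1.05 at Leiden resolution 0.5. Depth limits the adult other nuclei most, where 3 counts equal 2.14 CPM.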
